A study of Equus caballus with 13 samples.

Results

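The genes described here were 9 transcription factors that steer chondrocyte fate: SOX9, SOX5 and SOX6, the RUNX factors RUNX1, RUNX2 and RUNX3, NFATC1, and the hypoxia-inducible factors EPAS1 and HIF1A. They were taken by symbol from 2 tables of RNA kinetics deposited by the authors, and 7 of the 9 were listed in both; RUNX3 and NFATC1 were listed in neither, by symbol. The age table, for old against young female cells, held 11056 genes. The sex table, for young male against young female cells, held 11249, and 10974 genes were shared. Rows with only an Ensembl ID, 716 in the age table and 734 in the sex table, could not be matched to symbols. Genes called not listed here were thus not found by symbol, and a value under an Ensembl ID remains possible. The samples were cultures of horse chondrocytes from cartilage, all labelled as wild type: 5 from old females, 5 from young females and 3 from young males. Every culture, controls included, was given 4-thiouridine (4sU), a uridine analogue built into newly made RNA, for 4 h, and ages in years were not stated. The labels gave 12 batch numbers for the 13 samples, only 1 of which covered more than 1 group, so batch and group cannot be told apart.

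Cartilage formation depends on the SOX trio. SOX9 binds and activates the enhancers of cartilage matrix genes, and SOX5 and SOX6, which lack an activation domain of their own, bind beside it and strengthen its action. RUNX factors bind DNA together with the partner CBFB; RUNX2 drives chondrocytes towards hypertrophy, the state that precedes bone formation, and is required for osteoblasts, while RUNX1 acts in skeletal progenitors and cartilage. NFATC1 belongs to the factors that calcineurin, a calcium-activated phosphatase, sends to the nucleus. HIF1A and EPAS1 encode the alpha subunits of the oxygen-sensing factors, which pair with ARNT and whose proteins are marked for destruction by prolyl hydroxylases when oxygen is plentiful. Cartilage has no blood vessels and is poor in oxygen, and HIF1A is known to support SOX9 and chondrocyte survival there. The measurements below concern RNA only, not these proteins.

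For each gene the tables gave an RNA half-life, read as hours, and a synthesis rate in arbitrary units. Their product divided by ln 2 is called the implied level, the RNA level expected if synthesis and decay were in balance. Each is 1 value for a whole group, with no SD or n, and the depth of the samples is unknown. Differences are therefore given as log2 ratios to young female cells, with an absolute log2 ratio of at least 1, a 2-fold difference, as the threshold. The spread between animals is not in the tables, so no test was possible. Young female values come from the same 5 samples in both tables, so the age and sex comparisons share their reference. Scaling by transcript length was not stated, so any ordering of genes by synthesis rate or implied level below uses the values as deposited, with no correction for length. In such bulk cultures, fewer cells of a type and less RNA per cell cannot be told apart.

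Of 11 chondrocyte markers 10 were listed, MATN1 being the exception, and SOX9, itself a factor described here, is among the 10. Of markers of other cells, 1 of 10 was listed for leukocytes (CD14), 1 of 8 for endothelium (VWF), 3 of 8 for osteoblasts and 6 of 10 for fibroblasts and synovium. Leukocyte CD45 (PTPRC) and endothelial PECAM1 and CDH5 were not found by symbol in either table. The summed implied level of the chondrocyte markers was 0.912-fold in old and 2.51-fold in male cells relative to young female cells, and that of the fibroblast and synovial markers 0.585-fold and 2.13-fold. Without COMP, whose level was 1.77-fold in old cells, the other 9 chondrocyte markers summed to 0.709-fold in old and 2.39-fold in male cells. COL3A1 and PDPN made up most of the fibroblast and synovial sum, 133558 and 56757 of 206776 in young female cells of the age table. COL3A1 was 0.461-fold in old and 2.12-fold in male cells, and PDPN 0.906-fold and 0.862-fold. The shifts of COL1A1 (0.138-fold and 18.3-fold) and COL1A2 (0.282-fold and 10.5-fold) were larger. The part of these shifts in the differences below was not tested.

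The 7 listed factors covered a 10.5-fold range of half-life in young female cells. SOX9 RNA was the shortest-lived, at 0.750 h in the age table, and EPAS1 RNA the longest-lived, at 7.91 h. RUNX1 (0.968 h) and SOX5 (1.16 h) stood near SOX9. SOX6 (2.51 h), RUNX2 (2.62 h) and HIF1A (3.95 h) lay between these and EPAS1. The median over all genes of that table was 3.64 h, with an interquartile range of 1.78 to 8.67 h, so that 3 of the factors fell below the lower quartile and none above the upper. The order of the factors was SOX9, RUNX1, SOX5, SOX6, RUNX2, HIF1A and EPAS1 in young female cells of both tables and in old cells. In male cells RUNX2 and HIF1A exchanged places. Neighbours in this order cannot be separated by a replicate spread. The gap between SOX6 and RUNX2 in the age table, 1.04-fold, was smaller than that between the 2 young female estimates of RUNX2 itself, 2.62 and 3.69 h.

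**Figure D1:**
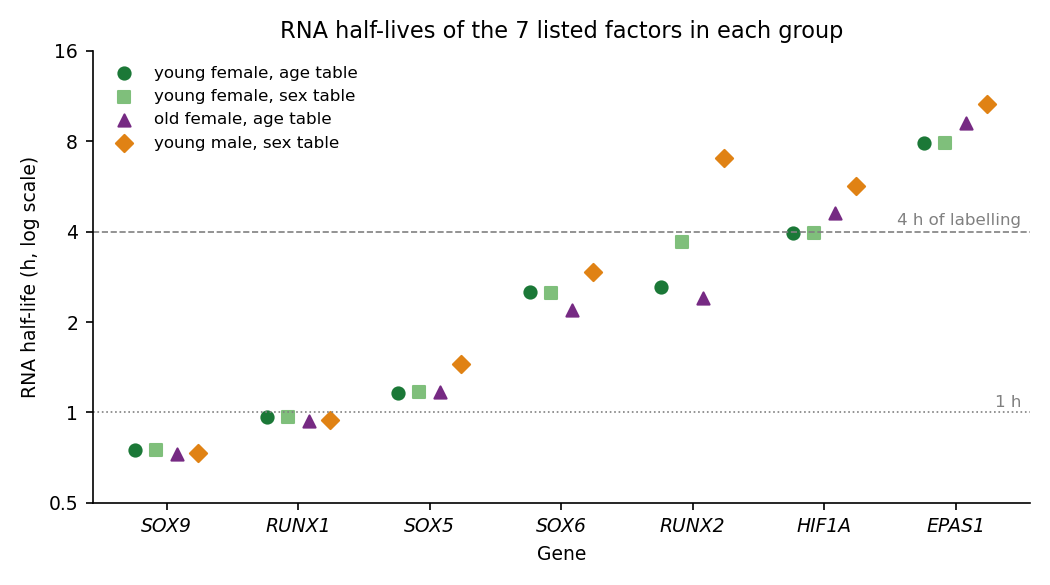
RNA half-life in hours (log axis) of the 7 listed factors, 1 point for each group in each table, as deposited by the authors. SOX9 and RUNX1 stay below 1 h in every group, EPAS1 stays at the top, and RUNX2 is the factor whose points spread most, from 2.41 to 7.04 h.

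Under constant RNA levels, a half-life sets the share of a gene's RNA that was made during the 4 h of labelling. This share was 97.5% for SOX9, 94.3% for RUNX1 and 90.8% for SOX5 in young female cells of the age table. For SOX6 and RUNX2 it was 66.8% and 65.3%, for HIF1A 50.4% and for EPAS1 29.6%. SOX9 and RUNX1 RNA was thus almost wholly replaced within the labelling period, and their half-lives lay below the range of 1 to 24 h taken as resolvable. SOX9 was at percentile 1.75 of all half-lives in that column, and 5.95% of genes were under 1 h.

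No factor passed the 2-fold threshold in either comparison. In old cells 0 of 7 passed by half-life (3.53% of all genes), 0 of 7 by synthesis rate (7.52%) and 0 of 7 by implied level (4.12%). In male cells it was again 0 of 7 for each, where 7.58% of all genes passed by half-life, 12.2% by synthesis rate and 4.61% by implied level. At an absolute log2 ratio of 0.5 the counts in old cells were 0 by half-life (13.4% of all genes), 2 by synthesis rate (23.0%) and 1 by implied level (15.6%). In male cells they were 2 by half-life (31.8%), 3 by synthesis rate (41.1%) and 0 by implied level (25.0%). All genes together were shifted in male cells, with a median log2 ratio of 0.27 for half-life and −0.28 for synthesis rate; in old cells the medians were −0.08 and 0.08. The factors' own medians were −0.05 and 0.13 in old cells and 0.31 and −0.37 in male cells.

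**Figure D2:**
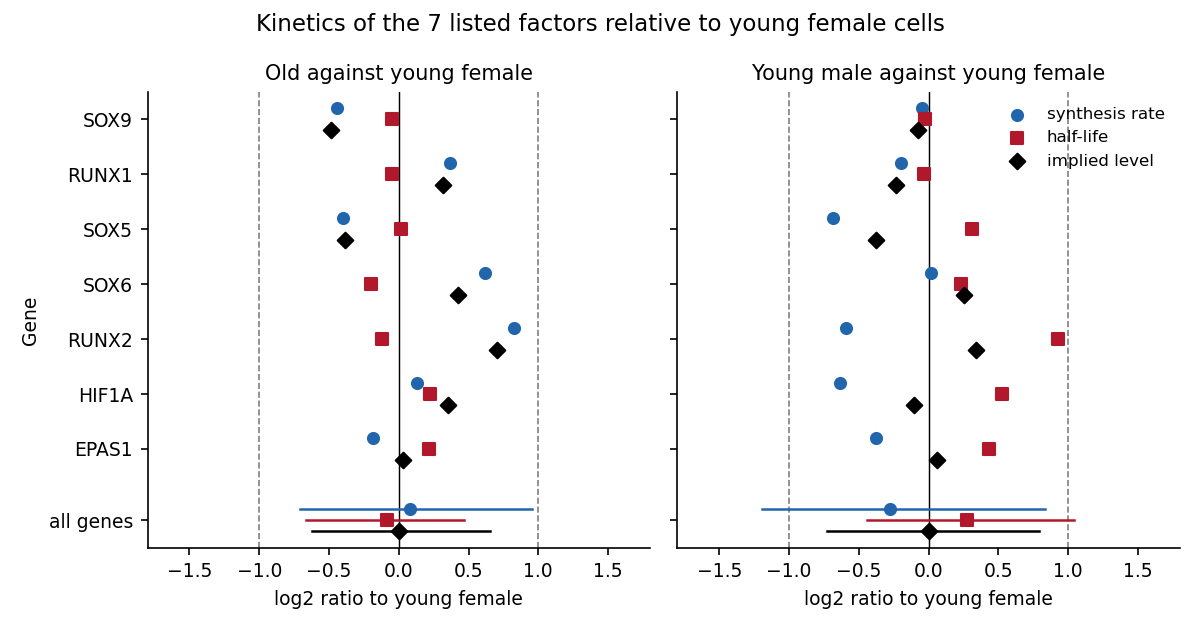
Log2 ratios to young female cells of synthesis rate, half-life and implied level for each listed factor, in old female cells (left) and young male cells (right). The lowest rows give the median and the 5th to 95th percentile of all genes; dashed lines mark a 2-fold difference, which no factor reaches.

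SOX9 had a lower synthesis rate in old cells, while its half-life was nearly the same. The synthesis rate was 13287 in young female and 9794 in old cells, a log2 ratio of −0.44, and the half-life was 0.750 and 0.727 h (−0.05). Its implied level was therefore 0.714-fold that of young female cells, 10266 against 14381 (log2 ratio −0.49), and 7.76% of genes had a lower ratio. Relative to the median of all genes the synthesis ratio was −0.52. In male cells its half-life was 0.734 h against 0.748 h in young female cells (−0.03). The median of all genes was at 0.27, but genes of like half-life lay as SOX9 did, its ratio relative to them being −0.01. The synthesis rate was 12723 and 12297 (−0.05), and the implied level 13728 and 13020 (−0.08). Relative to the median of all genes the male synthesis ratio turned to 0.23, and relative to genes of like half-life the male level ratio turned to 0.27.

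SOX5 resembled SOX9 in old cells. Its synthesis rate was 1981 in young female and 1498 in old cells (log2 ratio −0.40), its half-life 1.16 and 1.17 h (0.01), and its implied level 3321 and 2537 (−0.39). In male cells the synthesis rate of SOX5 was lower, 1171 against 1886 (−0.69, and −0.41 relative to all genes). Its half-life was longer there, 1.45 against 1.17 h (0.31), close to the median shift, and the implied level was 2440 against 3170 (−0.38). Relative to genes of like half-life, the male level ratio was −0.07.

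SOX6 differed in direction from its partners in old cells. The synthesis rate was 157 in young female and 241 in old cells (log2 ratio 0.62), the half-life 2.51 and 2.19 h (−0.20), and the implied level 569 and 763 (0.42). Of the SOX trio, the value of SOX6 in old cells was thus above that in young cells for synthesis and level, and those of SOX9 and SOX5 were below. In male cells SOX6 synthesis was 153 against 151 (0.02), its half-life 2.93 against 2.49 h (0.23), and its implied level 646 against 543 (0.25). Relative to all genes the half-life ratio was −0.04 and the synthesis ratio 0.30, and with the young female estimate of the age table the synthesis ratio was −0.04.

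Of 15 cartilage genes with enhancers known to bind the SOX trio, 14 were listed; implied levels were lower for 10 of them in old cells and higher for all 14 in male cells. The implied levels in old cells had a median log2 ratio of −0.53, where all genes had 0.00; 2 of 14 were past the threshold downward and 0 upward, against 1.99% and 2.13% of all genes. COMP, a pentameric matrix protein, was the other way (0.83). Past the threshold were COL9A2 (−1.35), a chain of the fibril-associated collagen IX, and HAPLN1 (−1.01), which links aggrecan to hyaluronan; with the young female estimate swapped between tables HAPLN1 was at −0.94. COL9A1 passed with them for synthesis rate (−1.27). In male cells the median level ratio was 1.49, and 10 were past the threshold upward, against 3.00% of all genes, and 0 downward, against 1.61%. Centring by half-life, which subtracts the median ratio of genes of like half-life, gave a median of 1.06, with 13 of 14 above 0. The largest were COL9A1 (2.00), CNMD (1.74), which encodes the anti-angiogenic chondromodulin, COL2A1 (1.74), the main cartilage collagen, and COL11A2 (1.68). SOX9 itself had a level ratio of −0.08 in the same male cells, SOX5 −0.38 and SOX6 0.25. Target RNAs were long-lived, with a median half-life of 45.5 h in young female cells of the age table against 0.750 to 2.51 h for the SOX trio, and such half-lives lie beyond what the labelling can resolve. Of these 14 genes, 8 are also among the chondrocyte markers given above. The fibroblast and synovial markers lay on the same side, with 6 of 6 below 0 in old and 5 of 6 above 0 in male cells, and the part of the cells' makeup in these values was not tested.

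RUNX1, like SOX9, had a half-life just under 1 h in every group. It was 0.968 h in young female and 0.937 h in old cells in the age table, against 0.966 h in young female and 0.943 h in male cells of the sex table, log2 ratios of −0.05 and −0.04. Its synthesis rate was 21230 in young female and 27317 in old cells (0.36), and its implied level 29634 and 36928 (0.32). In male cells the synthesis rate was 17664 against 20302 (−0.20) and the implied level 24026 against 28298 (−0.24). Relative to the median of all genes the male synthesis ratio of RUNX1 was 0.08, and relative to genes of like half-life its male level ratio was 0.12, so both signs turned. The male half-life ratio of RUNX1 was −0.02 relative to genes of like half-life.

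Of the 7 factors, RUNX2 had the largest synthesis and level ratios in old cells and the largest half-life ratio in male cells, and its young female values differed most between the tables. In old cells its synthesis rate was 53.7 against 30.3 (log2 ratio 0.83), its half-life 2.41 against 2.62 h (−0.12), and its implied level 186 against 115 (0.70). The level ratio was at percentile 95.6 of all genes. In male cells the half-life was 7.04 against 3.69 h (0.93), the synthesis rate 13.6 against 20.5 (−0.59), and the implied level 138 against 109 (0.34). Relative to all genes the male half-life ratio was 0.66.

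The young female estimates of RUNX2 differed between the tables although they came from the same samples. Its half-life was 2.62 h in the age table and 3.69 h in the sex table, a log2 difference of 0.49, larger in size than that of 98.5% of shared genes. The synthesis rate differed by −0.56 and the implied level by −0.07, which was the offset of all genes between the tables. For the other 6 factors the half-lives of the tables differed by at most 0.01 in log2. With the young female estimate swapped between tables, the old synthesis ratio of RUNX2 was 1.39, the male half-life ratio 1.42 and the male synthesis ratio −1.15, each past the threshold. Its old half-life ratio was then −0.62. The implied level ratios moved little, to 0.77 in old and 0.27 in male cells. RUNX2 was at percentile 1.01 of the implied levels in young female cells of the age table. Among the 603 shared genes under an implied level of 200, a limit chosen after the values were seen, the 95th percentile of the absolute half-life difference between tables was 0.83, against 0.14 for the other 10371.

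**Figure D3:**
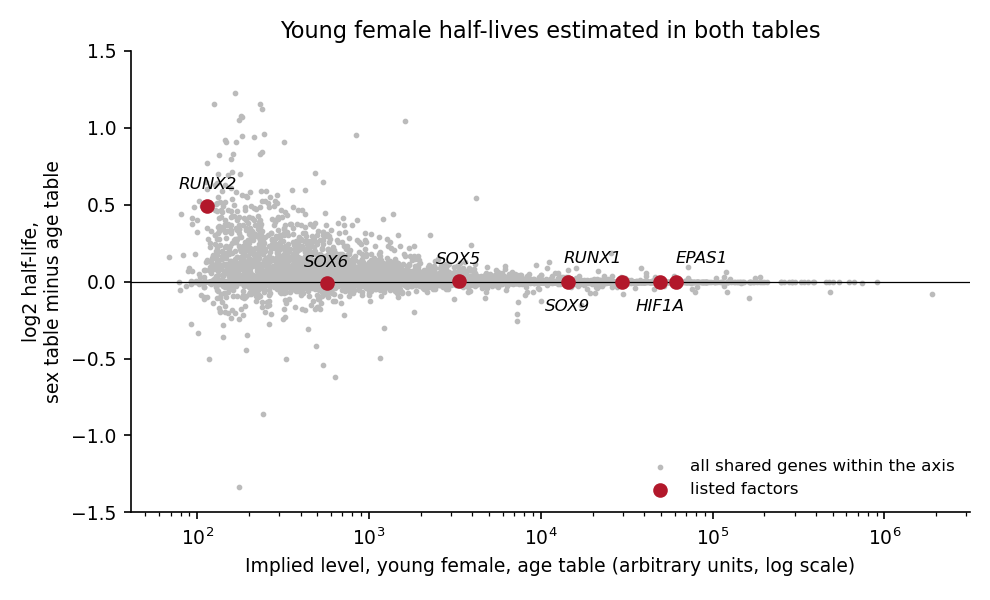
Log2 difference between the young female half-lives of the sex and age tables, by implied level (log axis, arbitrary units), for shared genes (grey; 98 of 10974 lie outside the axis) and the 7 listed factors (red). RUNX2 sits at the low end with a difference of 0.49, while the other 6 lie on the zero line.

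RUNX2 also overlapped another listed gene in the RefSeq horse annotation, the coding gene SUPT3H, and the files do not state whether reads were counted by strand. SUPT3H RNA had a half-life of 14.4 h in young female and 26.3 h in old cells, and of 14.4 and 26.4 h in young female and male cells of the sex table. SOX5 and HIF1A each overlapped an uncharacterised non-coding gene that neither table listed by its RefSeq name, and the other factors overlapped none. That annotation is of the TB-T2T assembly, not of EquCab3.0, the build named in the submitters' processing notes.

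Among 14 RUNX partners and regulators, 12 were listed. CBFB, the subunit that RUNX factors need for stable DNA binding, had implied levels of 2909 in young female and 2167 in old cells (log2 ratio −0.42), and of 2777 in young female and 1907 in male cells (−0.54). In old cells 0 of 12 passed the threshold in any of the 3 quantities, where 3.53% of all genes passed by half-life, 7.52% by synthesis rate and 4.12% by level. In male cells 2 of 12 passed, both by synthesis rate, where 12.2% of all genes did. SMURF1, a ubiquitin ligase that targets RUNX2, was lower (−1.21, and −0.93 relative to all genes), and TWIST1, which blocks RUNX2 function, was higher (1.03, or 0.97 with the swapped estimate). Relative to all genes the male half-life ratio of TWIST1 was −1.04. After centring by half-life, 0 of 12 half-life ratios in male cells were past the threshold. The level ratios of the 12 had medians of −0.11 in old and −0.35 in male cells.

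Genes of hypertrophy and ossification, many of them known RUNX2 targets, were listed for 13 of 15, RUNX2 among them; IHH and SP7 were not listed. COL10A1, the collagen that defines hypertrophic chondrocytes, had an implied level of 3073 in young female and 65651 in old cells, 21.4-fold higher, and of 2934 and 72352 in young female and male cells, 24.7-fold higher. Its half-life was 30.4 h in young female cells of the age table and at the ceiling of 69.3 h in old and male cells, so the split between synthesis (log2 ratios 3.23 and 3.43) and half-life (1.19 in each) is uncertain. In old cells COL10A1 was the 1 gene of 13 past the threshold upward for level (2.13% of all genes), and the median was 0.01. The synthesis rate of ALPL (−1.61) was also past it, as was the half-life of SPP1, which was at the ceiling in old cells. In male cells 6 of 13 were past the threshold upward for level (3.00% of all genes) and 0 downward (1.61%), with a median of 0.93; centred by half-life, 5 were past it upward. The largest after COL10A1 were ALPL (2.61), a phosphatase of mineralisation, IBSP (2.19), a bone matrix protein, and PHOSPHO1 (1.38), another phosphatase of mineralisation. MMP13, the collagenase of hypertrophic cartilage, had a level ratio of 0.74 in old cells and of 1.25 in male cells. Half-lives of SPP1, at the ceiling in male cells, and IBSP (1.26, and 0.99 relative to all genes) were longer in male cells and that of PANX3 shorter (−1.33). Centred by half-life, 0 of 13 half-lives were past the threshold upward. The osteoblast markers SPP1, ALPL and IBSP are on this list too, and their summed level was 1.63-fold in old and 2.38-fold in male cells, while BGLAP, DMP1 and SOST were not listed. SPP1 made up 96.4% of that sum in young female cells, and without it the sum of ALPL and IBSP was 1.18-fold in old and 5.31-fold in male cells; the level ratio of ALPL in old cells was −0.67. The part of osteoblast-like cells in these values was not tested.

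NFATC1 was not found by symbol in either table, so the calcium pathway is described by its relatives. All 15 genes of this list were listed. NFATC2 had an implied level of 690 in young female and 1656 in male cells (log2 ratio 1.26), with a synthesis ratio of 1.09 and half-lives of 2.78 and 3.14 h. In old cells its level was 719 against 723 (−0.01). The level ratio of NFATC3 was 0.02 in old cells and −0.29 in male cells, and that of NFATC4 −0.42 and 0.44. The catalytic calcineurin subunit PPP3CA was at 0.07 and −0.23. RCAN1, a calcineurin inhibitor that NFAT factors induce, had a half-life of 1.00 h in young female cells of both tables and level ratios of 0.34 and −0.35. Past the threshold were also RCAN2 in old cells (level −1.02, and −0.98 after centring by half-life) and PPP3CB in male cells (half-life 1.14, synthesis −1.10, which relative to all genes were 0.87 and −0.82). The median level ratio over the 15 was 0.02 in old and −0.14 in male cells.

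HIF1A and EPAS1 had longer half-lives in both old and male cells than in young female cells. For HIF1A it was 3.95 h in young female and 4.61 h in old cells (log2 ratio 0.22), and 3.95 h in young female and 5.69 h in male cells (0.53). For EPAS1 it was 7.91 and 9.17 h (0.21) and 7.90 and 10.7 h (0.43). Relative to the median of all genes these ratios were 0.31 and 0.30 in old and 0.26 and 0.16 in male cells. In old cells 86.5% and 85.9% of genes had a lower half-life ratio than HIF1A and EPAS1. After centring by half-life the male ratios were 0.20 and 0.05.

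In male cells the synthesis and half-life ratios of both HIF genes had opposite signs. HIF1A synthesis was 8295 in young female and 5344 in male cells (log2 ratio −0.63), and its implied level 47226 and 43897 (−0.11). EPAS1 synthesis was 5092 and 3928 (−0.37), and its implied level 58033 and 60394 (0.06, or −0.13 relative to genes of like half-life). In old cells HIF1A synthesis was 9513 against 8678 (0.13), which together with the longer half-life gave an implied level 1.28-fold higher, 63301 against 49482 (0.36). EPAS1 synthesis in old cells was 4690 against 5327 (−0.18) and its implied level 62048 against 60788 (0.03). Opposite signs of the synthesis and half-life ratios were seen for 5 of the 7 factors in old and 4 of 7 in male cells. This is 71.4% and 57.1% of them, against 70.8% and 77.0% of all genes. Between the 2 young female estimates, the absolute log2 difference in implied level was 0.067 at the median and 0.068 at the 95th percentile. For half-life and synthesis rate the 95th percentiles were 0.18 and 0.24. At a nearly fixed level, an error in half-life brings an opposite error in synthesis rate. Its part in these signs was not tested.

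Among 11 HIF partners and oxygen sensors 10 were listed, VHL being the exception. EGLN3, a prolyl hydroxylase that HIF itself induces, was past the threshold in old cells, with a synthesis rate of 1239 against 497 (log2 ratio 1.32) and an implied level of 2197 against 999.9 (1.14). It was the 1 gene of 10 to pass in old cells, where 7.52% of all genes passed by synthesis rate and 4.12% by level, and 0 of 10 passed in male cells (7.58% of all genes by half-life, 12.2% by synthesis rate and 4.61% by level). The EGLN3 level ratio was 0.47 in male cells. EGLN1, the main prolyl hydroxylase, had a level ratio of 0.21 in old cells and a half-life of 5.64 against 3.84 h in male cells. ARNT, the partner of both alpha subunits, was at −0.40 and −0.51. The median level ratio of the 10 was 0.09 in old and 0.17 in male cells, the latter turning to −0.07 after centring by half-life.

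All 20 genes of a list of hypoxia response genes were listed, and as a group they lay near the median of all genes. Their median level ratio was 0.01 in old cells (−0.05 after centring by half-life) and −0.06 in male cells. In old cells 1 of 20 was past the threshold downward for level (1.99% of all genes) and 0 upward (2.13%). It was ANGPTL4, a regulator of lipoprotein lipase (−1.05, but −0.99 with the young female estimate swapped between tables). In male cells ANGPTL4 was again past the threshold (−1.08, but −0.85 after centring by half-life). CA9, a carbonic anhydrase that is among the strictest HIF1A targets, was higher there (1.56, or 9231 against 3134). VEGFA, the angiogenic factor, was at 0.01 in old and −0.34 in male cells. Genes past the threshold for synthesis rate included ANGPTL4 (−1.20), CA9 (1.16) and PFKFB4 (−1.10) in male cells; relative to all genes ANGPTL4 was at −0.92 and PFKFB4 at −0.83. Half-life ratios past it included those of ANKRD37 (−1.05) in old cells and P4HA1 (1.27) in male cells, which relative to all genes were −0.96 and 0.995 and after centring by half-life −0.93 and 0.76. ADM in old cells (half-life 2.96, synthesis −2.95) and DDIT4 in male cells (2.66 and −3.22) passed only against young female half-lives of 0.0740 and 0.0816 h. The other table gave 0.631 and 0.617 h for the same samples, against which the half-life ratios were −0.13 and −0.26 and the synthesis ratios 0.19 and −0.38.

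**Figure D4:**
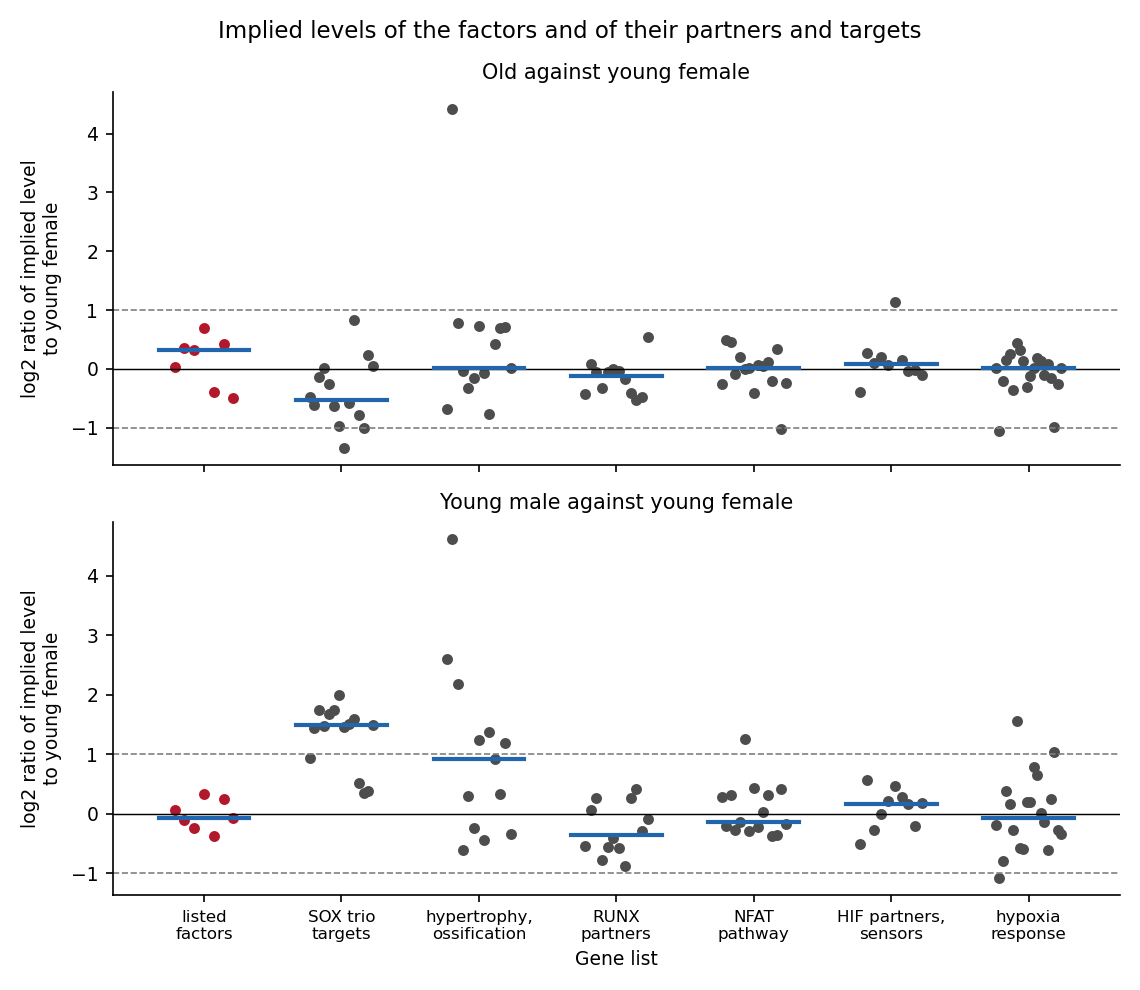
Log2 ratio of implied level to young female cells for the 7 listed factors (red) and for the listed genes of 6 lists of partners and targets (grey), with the median of each list as a blue bar and 2-fold differences as dashed lines. The factors lie within 2-fold in both panels, while 10 of 14 SOX trio targets lie above it in male cells and COL10A1 stands far above it in both.

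Genes with kinetics most like each factor were found by distance over 6 values, the log2 half-life and synthesis rate in young female cells and the 4 log2 ratios of half-life and synthesis, among 10275 genes with a symbol in both tables. Nearest to SOX9 were PFKFB3 (distance 0.52), DUSP1 (0.78) and TENT5A (0.80), with young female half-lives of 0.861, 0.576 and 0.634 h. SOX9 had few near neighbours, 6 genes within a distance of 1, and RUNX1 had 9, led by MYO10 (0.36), GLUL (0.55) and PTGS2 (0.58). HIF1A had 19 genes within that distance, RUNX2 28 and EPAS1 30, while SOX5 and SOX6 each had 350. The closest to SOX5 were ZNF787 (0.32), USP36 (0.35) and SPRED1 (0.41), and the closest to SOX6 were TMEM60 (0.21), KANSL1L (0.32) and RBM34 (0.35). RUNX2 was nearest to ABTB3 (0.49), TRPC1 (0.53) and NMRK1 (0.54). The young female half-life and synthesis rate in these distances came from the age table. For RUNX2 the sex table differed from them by 0.49 and −0.56 in log2, so its neighbours are uncertain. HIF1A was nearest to DST (0.62), SFPQ (0.63) and NCL (0.69), and EPAS1 to HNRNPA1 (0.47), BNIP3 (0.48) and IL6ST (0.50).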

How the data were processed

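The 13 chondrocyte samples were labelled with 4sU for 4 h, and poly(A)-selected, strand-specific libraries were made, per the labels' protocols. The submitters' processing notes name cutadapt 4.5, STAR 2.5.3 and the build EquCab3.0; the kinetic model, annotation, gene filter and way of combining samples are not given in the sources used here. The authors deposited 1 half-life and 1 synthesis rate per gene and group, with no unit. Half-lives were read as hours because the values stop at 69.3, a decay rate of 0.01 per h. The column headed "Young" was taken as young female, since the labels assign those 5 samples to both tables. The tables held 0 columns of values per sample, so no test was possible and depth is unknown.

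Ratios, percentiles and counts were computed with Python 3.11.15, pandas 2.3.3 and numpy 2.4.6, after a check on simulated data with known ratios. No gene was removed and no pseudocount added. The factors, the other gene lists and the tests were chosen with earlier results of these data known. Named genes were all 9 factors, their main partners, and list genes past the threshold (the 4 largest where more passed). Alternatives were a threshold of 0.5, filters on half-life, on synthesis rate and on genes shared by the tables, centring, and young female estimates swapped between the tables. "Centring by half-life" subtracts the median of each of 10 gene groups, sorted on half-life in the cells that the ratio leaves out. No sequences were used here. Centred and swapped values of list genes, and marker sums without COMP, were alternatives chosen after seeing the data. Some genes of the lists that passed the threshold are not reported here.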

Additional observations from a re-analysis of the deposited data

How the results depend on the processing

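No paired analysis was possible because the tables hold no values per sample. Of 126 alternative log2 ratios of the factors, 3 were past 2-fold, all of RUNX2 with young female estimates swapped between tables, and 14 turned in sign, all for ratios under 0.5 in size as first given. The number of factors past the threshold was 0 in each comparison. At a threshold of 0.5 it became 2 for synthesis rate and 1 for implied level in old cells, and 2 for half-life and 3 for synthesis rate in male cells. With the swapped estimates it became 1 for synthesis rate in old cells, and 1 for half-life and 1 for synthesis rate in male cells. The order of the 7 half-lives in young female cells did not depend on the table.

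Counts over all genes moved by more than 1.5 times in 19 of 36 alternatives. At a threshold of 0.5 they were 1476, 2544 and 1720 in old cells, given for half-life, then synthesis rate, then implied level (390, 831 and 455 at 1) and 3573, 4619 and 2810 in male cells (853, 1367 and 519 at 1). Within 1 to 24 h they were 81 for half-life and 431 for synthesis rate in old cells, and 349, 842 and 295 in male cells. For the upper 75% by synthesis rate they were 238, 442 and 204 in old and 346, 755 and 225 in male cells. Centring by half-life gave 516 for half-life and 296 for implied level in male cells. With group values only, the spread between animals is unknown for every value.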

Other observations

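Other transcription factors of cartilage and skeletal development were listed for 29 of 38, and their RNAs were short-lived as a group, with a median half-life of 1.07 h in young female cells against 3.64 h over all genes of the age table. TRPS1, a repressor of the growth plate, had half-lives of 0.794 h in both young female and old cells and of 0.847 h in male cells. SOX8, the closest relative of SOX9 on the list, had a half-life of 0.975 h in young female, 0.0205 h in old and 0.753 h in male cells, while its implied level was 1433, 807 and 1560. SOX4 was listed at 0.0585 h in young female cells of the age table and at 0.630 h in those of the sex table, which are the same samples; against the latter its half-life ratio in old cells was −0.13. SNAI1 and SNAI2 were likewise under 0.1 h in young female cells of both tables, at 0.0821 and 0.0608 h in the age table, and at 0.516 and 0.542 h in old cells. Half-life ratios past the threshold numbered 6 of 29 in old cells (3.53% of all genes) and 4 of 29 in male cells (7.58%). The old ones included DLX5 (−4.01), and the male ones were CEBPB (−7.07), SNAI2 (3.25), SNAI1 (2.93) and HEY1 (−2.49). DLX5 in old cells and CEBPB in male cells were listed at 0.0554 and 0.00649 h, far below the 1 to 24 h taken as resolvable, with level ratios of 0.07 and −0.19. For level, those past the threshold upward in old cells included SOX4 (1.30) and MKX (1.04), and 0 of 29 were past it downward (1.99% of all genes). In male cells it was 0 of 29 in each direction (3.00% of all genes upward and 1.61% downward).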
